A study of Mus musculus with 9 samples.

Results

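The rod phototransduction genes described here are Gnat1, Pde6a, Pde6b, Pde6g, Cnga1, Cngb1, Sag, Rcvrn and Nrl. They were found by symbol, as 9 of the 48587 gene names in the count table, and all 9 passed the filter on low counts in every comparison. Poly-A RNA was sequenced from 9 retinal samples of C57BL/6J mice aged 12 weeks, each a pool of 6 retinas, so that n counts pools and not mice. RVO eyes (n = 3 pools) had all their large veins closed by a laser after injection of the photosensitizer eosin Y, under anesthesia with ketamine (100 mg/kg) and xylazine (5 mg/kg). Control laser-treated eyes (n = 3) were the fellow eyes of such mice and got as many laser spots in the areas between the vessels, and both were taken at d2. The paper reports that part of the closed veins reopened over the days after the laser, so some may have been open when sampled. Untreated eyes (n = 3) came from other mice, and the labels do not say whether those mice received eosin or anesthesia. In this model the laser itself injures the retina in RVO and control eyes alike, so RVO versus control compares occlusive with non-occlusive laser treatment.

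Rods turn light into an electrical signal through a short chain of proteins in their outer segment. The activated visual pigment switches on transducin, transducin relieves the inhibition of a cGMP phosphodiesterase, the phosphodiesterase lowers cGMP, and the cGMP-gated channel of the plasma membrane closes. Arrestin and calcium-binding proteins such as recoverin end or tune the response, and the transcription factor NRL holds rods to their fate and drives many of these genes. Rods are by far the most numerous cells of the mouse retina, and their transcripts are among the most abundant in retinal RNA.

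Total counts per sample were between 21022997 and 28993921 in RVO eyes, 18897218 and 23419497 in control eyes and 12377572 and 15245869 in untreated eyes, and the untreated samples were thus the shallowest. Each member had between 15931 and 385194 counts in each sample, so the precision was set by the spread between pools. RVO replicate 2 stood apart from the other RVO samples over all genes, at a chi-square of 59.5 and 32.1 per degree of freedom against replicates 1 and 3, which were at 9.80 against each other. Its summed lens marker level was 4426 CPM (read counts scaled to the library's size), against 141 and 353 in the other RVO samples. Control replicate 1 was at 2342 and untreated eyes were between 2.81 and 22.7. The members themselves did not set RVO replicate 2 apart: their summed level was between 24647 and 25942 CPM in the RVO eyes.

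All 9 rod genes were lower in RVO eyes than in untreated eyes, 6 of 9 were lower in control eyes than in untreated eyes, and 2 of 9 (Sag and Pde6b) were lower in RVO than in control eyes. The last pair of calls was lost with the replicate number as a block (adjusted p = 0.0314 for each). The calls are those of edgeR's quasi-likelihood test at a Benjamini-Hochberg adjusted p under 0.01 over all genes tested, which is the test behind each adjusted p given here. The summed level of the 9 genes, on the TMM-scaled CPM scale used throughout, was 49514 ± 1270 CPM (SD, n = 3) in untreated eyes, 34405 ± 2890 in control eyes and 25324 ± 649 in RVO eyes. As a share of all counts, the 9 genes made up 4.56% ± 0.0450 in untreated, 3.52% ± 0.243 in control and 2.68% ± 0.0365 in RVO eyes. In bulk RNA, fewer rods and less RNA per rod cannot be told apart.

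Many other genes moved as well, which sets the background for these counts. Of 16380 genes tested between RVO and untreated eyes, 24.6% were called lower and 27.4% higher, and in 35.5% all 3 RVO samples lay below all 3 untreated ones. Between control and untreated eyes, 25.2% of 16066 genes were called lower, 27.2% higher, and 33.0% did not overlap in the lower direction. Between RVO and control eyes, 0.634% of 16874 genes were called lower and 2.70% higher at 0.01, 17.1% were lower at an adjusted p under 0.05, and 25.4% did not overlap in the lower direction. In that last comparison 22.9% of genes were lower and 24.1% higher at an unadjusted p under 0.05, and DESeq2 called 12.7% of the 17050 genes it tested lower and 11.0% higher at 0.01. These shares are the background for the counts by these cuts given below. No member was called higher in any comparison, by edgeR or by DESeq2, and at an unadjusted p under 0.05 that count was still 0 in each.

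**Figure D1:**
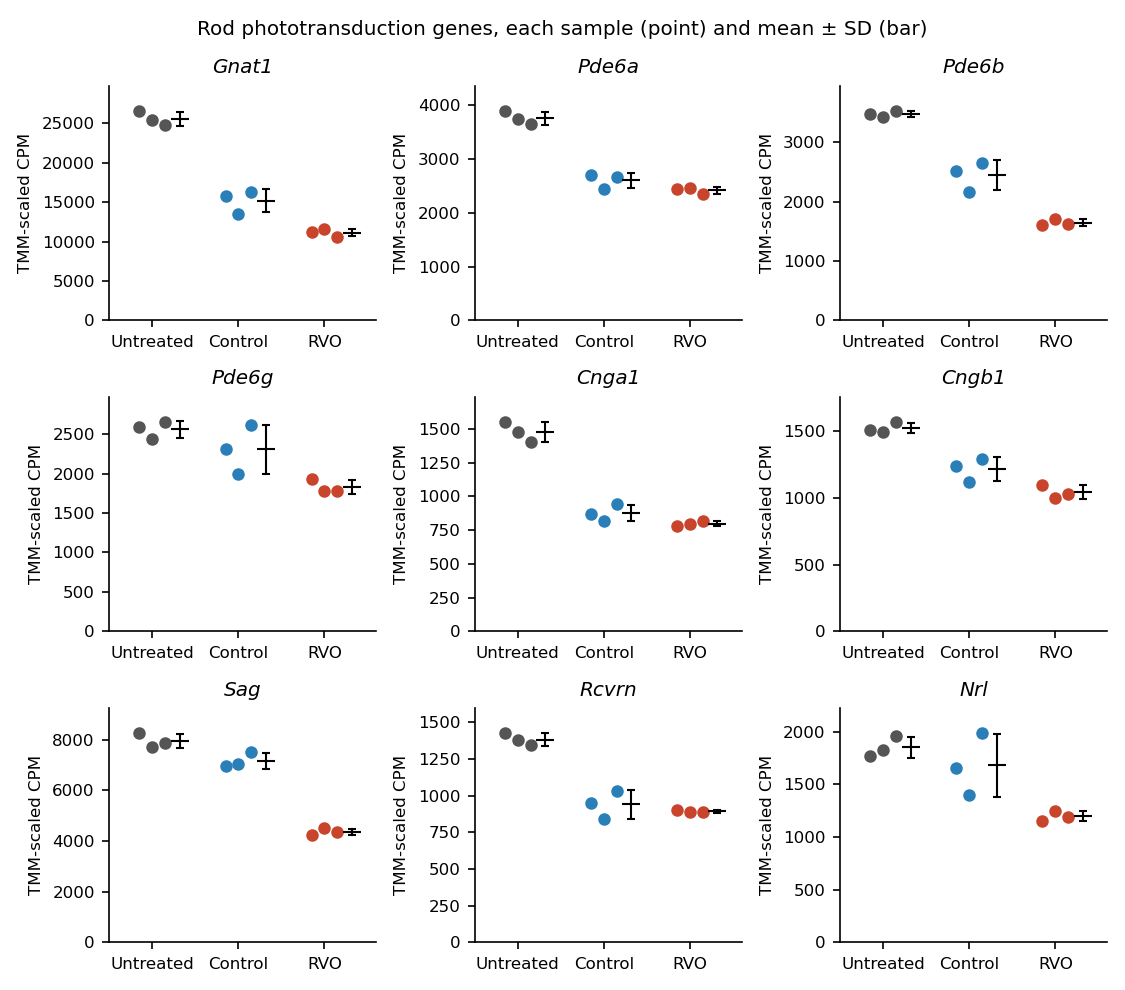
TMM-scaled CPM (vertical axes, each from 0) of the 9 rod phototransduction genes in untreated, control laser-treated and RVO eyes, with each sample as a point and the mean ± SD of 3 pools as a bar beside it. In each panel the 3 RVO samples sit below the 3 untreated ones, while control samples lie near the RVO level for Pde6a, Cnga1 and Rcvrn and near the untreated level for Sag.

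Gnat1 encodes the alpha subunit of rod transducin, the G protein that carries the signal from the visual pigment. It lies at chr9:107674474-107679712 (minus strand, GRCm38, the build of all coordinates given here) and was the most abundant member. Its level was 26525, 25372 and 24767 CPM in the 3 untreated samples, 15786, 13488 and 16271 CPM in the control samples, and 11232, 11566 and 10617 CPM in the RVO samples. The 3 groups were fully separated, with untreated eyes highest and RVO eyes lowest. Gnat1 thus fell to 43.3% of the untreated level in RVO eyes (log2 fold change -1.21, SE 0.0779, adjusted p = 1.31e-05) and to 58.6% in control eyes (-0.77, SE 0.0842, adjusted p = 5.67e-06), the largest fall among the members in RVO eyes and, with Cnga1 beside it, in control eyes. With trends of GC content and length removed, the values of Gnat1 against untreated eyes were -1.68 in RVO and -1.14 in control eyes. In control eyes Rcvrn was then next at -0.99, and Cnga1 was at -0.43. Between RVO and control eyes the log2 fold change of Gnat1 was -0.45 (SE 0.0917), which missed the threshold at an adjusted p of 0.0139 although the groups did not overlap. Of 14 alternatives 5 called this difference, with adjusted p from 7.28e-05 (DESeq2) to 0.0711 (edgeR without Control replicate 1), and with the replicate number as a block it was 0.0418.

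The rod phosphodiesterase has a pair of catalytic subunits, encoded by Pde6a and Pde6b, and inhibitory subunits encoded by Pde6g. Pde6a is at chr18:61220315-61289924 (plus strand), Pde6b at chr5:108388391-108432397 (plus strand) and Pde6g at chr11:120447605-120453500 (minus strand). Pde6a was at 3884, 3731 and 3639 CPM in untreated samples, 2696, 2440 and 2664 in control samples and 2441, 2451 and 2343 in RVO samples. Control and RVO samples overlapped, and both lay below the untreated ones. Its log2 fold change against untreated eyes was -0.65 (SE 0.0658, adjusted p = 9.20e-05) in RVO and -0.55 (SE 0.0643, adjusted p = 1.01e-05) in control eyes, and RVO and control eyes were not told apart (-0.11, SE 0.0680, adjusted p = 0.238).

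Pde6b went down in both steps. It was at 3471, 3422 and 3521 CPM in untreated samples, 2516, 2160 and 2649 CPM in control samples and 1599, 1711 and 1627 CPM in RVO samples. The groups were fully separated, with control eyes in the middle. Pde6b fell to 47.1% of the untreated level in RVO eyes (log2 fold change -1.09, SE 0.0643, adjusted p = 9.21e-06) and to 69.4% in control eyes (-0.53, SE 0.0747, adjusted p = 4.81e-05). RVO eyes had 67.3% of the control level (-0.57, SE 0.0871, adjusted p = 0.00975), a call close to the threshold that was lost when any sample other than RVO replicate 2 was left out (adjusted p up to 0.0566).

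Pde6g fell past the threshold in RVO versus untreated eyes. Its level was 2585, 2443 and 2652 CPM in untreated samples, 2316, 1991 and 2617 CPM in control samples and 1926, 1785 and 1776 CPM in RVO samples. The control samples were widely spread and overlapped the untreated ones, while all RVO samples were lower than both. The log2 fold change was -0.50 (SE 0.0701, adjusted p = 0.000445) for RVO versus untreated, -0.17 (SE 0.0861, adjusted p = 0.101) for control versus untreated and -0.34 (SE 0.104, adjusted p = 0.0409) for RVO versus control eyes. These values moved with the processing: with trends of GC content and length removed they were -0.97 for RVO and -0.52 (adjusted p = 0.000222) for control versus untreated eyes, and without TMM factors they were -0.28 and 0.0036. The control value also hung on single samples, at -0.27 without Control replicate 3 (adjusted p = 0.00945) and -0.079 without Control replicate 2 (adjusted p = 0.344).

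The rod cGMP-gated channel consists of alpha subunits (Cnga1) and a beta subunit (Cngb1). Cnga1 is at chr5:72603696-72644275 (minus strand) and overlaps 1 other gene on the same strand, outside exons, and Cngb1 is at chr8:95239045-95306585 (minus strand). Cnga1 was at 1550, 1476 and 1400 CPM in untreated samples, 872, 821 and 942 CPM in control samples and 780, 797 and 818 CPM in RVO samples. Nearly the whole step lay between untreated eyes and the lasered groups: the log2 fold change was -0.77 (SE 0.0661, adjusted p = 9.08e-07) in control and -0.90 (SE 0.0677, adjusted p = 2.67e-05) in RVO eyes. The value for RVO versus control eyes was -0.14 (SE 0.0701, adjusted p = 0.158), with the highest RVO sample just under the lowest control sample.

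Cngb1 was at 1508, 1491 and 1567 CPM in untreated samples, 1237, 1116 and 1290 CPM in control samples and 1100, 999 and 1027 CPM in RVO samples. Its groups were in the same order and did not overlap. Against untreated eyes its falls were smaller than those of its partner subunit before correction for GC content and length. The log2 fold change was -0.56 (SE 0.0674, adjusted p = 0.000204) for RVO and -0.35 (SE 0.0643, adjusted p = 0.000441) for control eyes against untreated eyes, and -0.22 (SE 0.0776, adjusted p = 0.0600) between RVO and control eyes. With trends of GC content and length removed the order turned, at -0.48 for Cnga1 against -0.80 for Cngb1 in RVO and -0.43 against -0.63 in control eyes, all still called. Without TMM factors the control versus untreated value of Cngb1 was -0.17, which no longer passed the threshold (adjusted p = 0.0308).

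Sag encodes the rod arrestin, which binds the activated pigment and stops the signal, and lies at chr1:87803680-87845158 (plus strand). It was the second most abundant member by counts. Its level was 8256, 7726 and 7855 CPM in untreated samples, 6943, 7020 and 7520 CPM in control samples and 4247, 4495 and 4364 CPM in RVO samples. The control samples lay just under the untreated ones, and the RVO samples far below both. Sag had 60.9% of the control level in RVO eyes (log2 fold change -0.71, SE 0.0691, adjusted p = 0.00566), which was the largest fall of the 9 between these groups, and this adjusted p rose to between 0.0118 and 0.0442 when any sample other than RVO replicate 2 was left out. Against untreated eyes it fell to 54.6% in RVO eyes (-0.87, SE 0.0694, adjusted p = 3.22e-05). In control eyes the value was -0.17 (SE 0.0686, adjusted p = 0.0458), not past the threshold by edgeR, past it by DESeq2 (adjusted p = 0.00254), and 0.0055 without TMM factors.

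Rcvrn encodes recoverin, the calcium sensor that restrains the kinase of the visual pigment, and is at chr11:67695326-67703333 (plus strand). It showed a different course from Sag. Its level was 1425, 1375 and 1341 CPM in untreated samples, 951, 837 and 1032 CPM in control samples and 904, 888 and 886 CPM in RVO samples. All lasered samples were lower than the untreated ones, and the RVO samples lay within the range of the control samples. The log2 fold change was -0.64 (SE 0.0615, adjusted p = 7.08e-05) in RVO and -0.57 (SE 0.0721, adjusted p = 1.79e-05) in control eyes against untreated eyes, and -0.08 (SE 0.0832, adjusted p = 0.503) between RVO and control eyes, the smallest of the 9. With trends of GC content and length removed, the fall in RVO eyes against untreated eyes was larger, at -1.19.

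Nrl encodes the leucine zipper transcription factor that specifies rods and is at chr14:55518978-55524981 (minus strand). It was at 1769, 1827 and 1963 CPM in untreated samples, 1658, 1395 and 1987 CPM in control samples and 1155, 1251 and 1189 CPM in RVO samples. Control samples spread over a wide range, with replicate 3 above every untreated sample and replicate 2 closest to the RVO samples. Nrl fell in RVO eyes against untreated eyes (log2 fold change -0.64, SE 0.0697, adjusted p = 0.000125). For control versus untreated eyes the value was -0.16 (SE 0.101, adjusted p = 0.178), for which Control replicate 3 decided the call: without it the value was -0.29 (adjusted p = 0.00673), and without TMM factors it was 0.011. For RVO versus control eyes the value was -0.49 (SE 0.122, adjusted p = 0.0218), with no overlap between the groups.

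**Figure D2:**
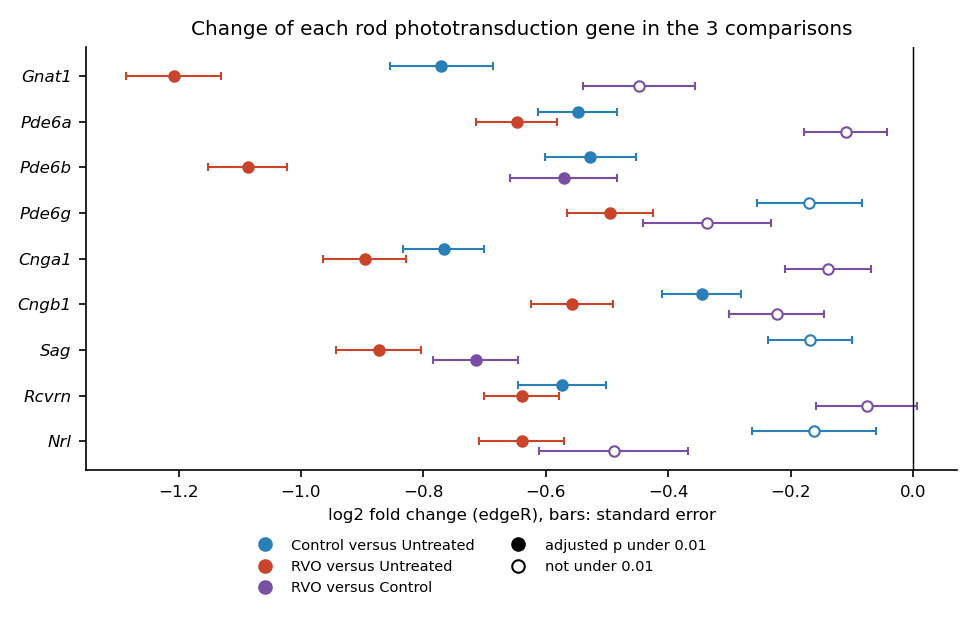
Log2 fold change (horizontal axis, edgeR) of each rod phototransduction gene (rows) for control versus untreated, RVO versus untreated and RVO versus control eyes, with standard errors as bars and filled points for an adjusted p under 0.01. All points lie below 0; RVO versus untreated values run from -1.21 (Gnat1) to -0.50 (Pde6g), and RVO versus control values from -0.71 (Sag) to -0.08 (Rcvrn).

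Over the 9 genes, the median log2 fold change was -0.65 for RVO versus untreated, -0.53 for control versus untreated and -0.34 for RVO versus control eyes, while the medians over all genes tested were 0.0081, 0.013 and 0.019. Groups were separate for 9 of 9 members in the first of these comparisons, 7 of 9 in the second and 7 of 9 in the third, to be read against the 35.5%, 33.0% and 25.4% of all genes given above. In the third, 2 of 9 passed 0.01, 5 of 9 passed 0.05 (Sag, Pde6b, Gnat1, Nrl and Pde6g), 6 of 9 were lower at an unadjusted p under 0.05 (22.9% of all genes were), and DESeq2 called 4 of 9 lower at 0.01 (12.7% of all genes). RVO versus untreated and control versus untreated use the same 3 untreated samples, so their values are set side by side without a measure of likeness.

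Compared per length, as CPM per kilobase of annotated exon, the untreated eyes had Gnat1 far in front at 8437 ± 295, then Rcvrn at 1327 ± 40.7, Pde6g at 1105 ± 46.2, Sag at 892 ± 31.1, Pde6a at 800 ± 26.4, Pde6b at 691 ± 9.86, Nrl at 326 ± 17.4, Cnga1 at 233 ± 11.9 and Cngb1 at 163 ± 4.23 (SD, n = 3). No neighbours in this order overlapped between samples. In RVO eyes the level per kilobase of Gnat1 was 3677 ± 159, Pde6a (514 ± 12.8) and Sag (491 ± 13.9) overlapped, and Pde6b was at 327 ± 11.5, well under Pde6a. In control eyes Pde6g, Rcvrn and Sag overlapped their neighbours in the order, as did Pde6a and Pde6b, and Cnga1 and Cngb1. Exon lengths merge all annotated transcripts, so a gene with long alternative exons is given a lower level.

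Because the members moved by unequal amounts, their mix differed between the groups. Each member's share of the summed counts of the 9 genes does not depend on how libraries were scaled. The share of Gnat1 was 51.6% ± 0.654 in untreated, 44.1% ± 1.00 in control and 44.0% ± 0.794 in RVO eyes (SD, n = 3). Sag made up 16.0% ± 0.206, 20.9% ± 1.38 and 17.3% ± 0.490 in the same order, with control eyes highest in every sample. Pde6a went from 7.58% ± 0.0900 and 7.57% ± 0.322 in untreated and control eyes to 9.52% ± 0.0861 in RVO eyes. Rcvrn went from 2.79% ± 0.0315 and 2.73% ± 0.0573 to 3.53% ± 0.0916. The shares were not corrected for trends of GC content and length, so the size of these differences may depend on such trends. With them removed, the log2 fold change for RVO versus untreated eyes was -1.19 for Rcvrn (-0.64 as reported) and -1.68 for Gnat1 (-1.21 as reported). Of 27 differences in log2 share between groups, 21 had groups that did not overlap. These had an exact two-sided permutation p of 0.1, the smallest that 3 against 3 samples allow, and an adjusted p of 0.129 over the 27, so no share can pass 0.05 in this design.

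Ratios between partners within a sample showed the same inequality more directly; the ratios were chosen after the members' values had been seen. The log2 ratio of Pde6b to Pde6a, the catalytic subunits, was -0.11 ± 0.0583 (SD, n = 3) in untreated eyes, -0.095 ± 0.0844 in control eyes and -0.55 ± 0.0511 in RVO eyes. Untreated and control samples overlapped (exact p = 0.8), while all RVO samples were lower than all control samples, by 0.46 on average. For the channel the step was elsewhere: the log2 ratio of Cnga1 to Cngb1 was -0.046 ± 0.104 in untreated, -0.47 ± 0.0323 in control and -0.38 ± 0.0977 in RVO eyes, with both lasered groups below all untreated samples and overlapping each other (exact p = 0.3). These ratios were not corrected for GC content and length, which turns the order of Cnga1 and Cngb1 as given above. For Pde6a and Pde6b in RVO versus control eyes, the values with those trends removed were -0.12 and -0.58, as before.

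The log2 ratio of Sag to Gnat1 was -1.69 ± 0.0294 in untreated, -1.08 ± 0.125 in control and -1.35 ± 0.0614 in RVO eyes, with no overlap between any of the groups. That of Nrl to Gnat1 was -3.79 ± 0.125, -3.19 ± 0.132 and -3.22 ± 0.0619, higher in both lasered groups than in untreated eyes and not told apart between them (exact p = 0.8). That of Pde6g to Pde6a was -0.55 ± 0.0832, -0.18 ± 0.138 and -0.40 ± 0.0577, highest in control eyes. With trends of GC content and length removed, the log2 fold changes of Pde6g and Pde6a against untreated eyes were -0.52 and -0.57 in control and -0.97 and -0.69 in RVO eyes, so the order of this pair in RVO eyes turned. Those of Sag, Nrl and Gnat1 were then -0.18, -0.34 and -1.14 in control and -0.83, -0.83 and -1.68 in RVO eyes. Of the 15 differences between groups for these 5 ratios, 11 reached the smallest possible exact p of 0.1, with an adjusted p of 0.136 over the 15.

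**Figure D3:**
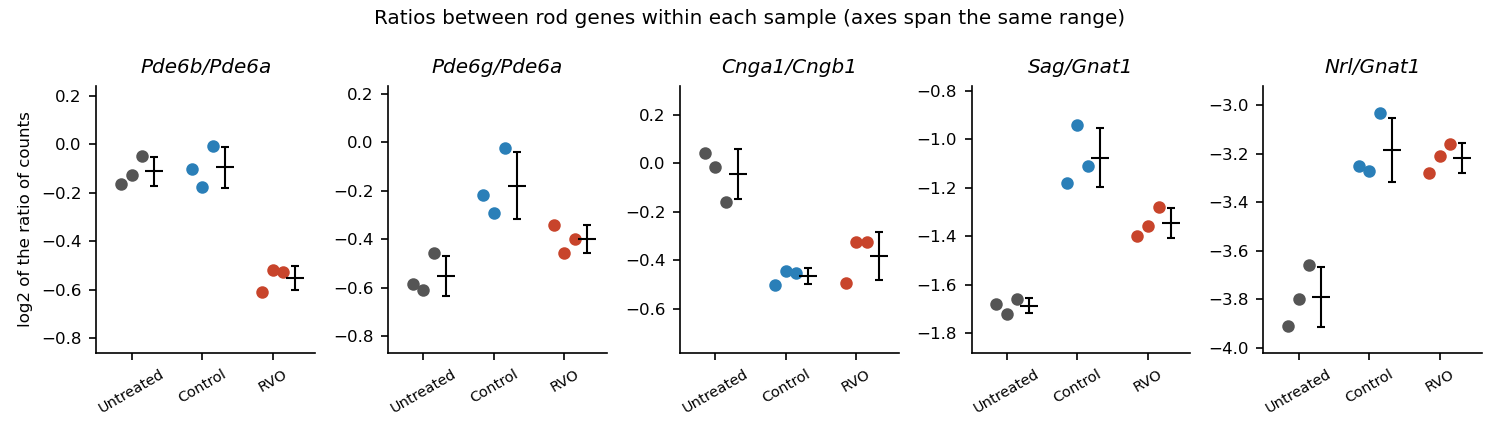
Log2 ratio of counts within each sample (vertical axes, all spanning the same range) for 5 pairs of rod genes in untreated, control and RVO eyes, with points for samples and bars for the mean ± SD of 3 pools. Pde6b/Pde6a is lowest in RVO eyes (mean -0.55, against -0.095 in control eyes), while Cnga1/Cngb1 is lower in control and RVO eyes alike (means -0.47 and -0.38).

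Promoter sequence was read for 3 members: Sag and Pde6b, the only members called lower in RVO than in control eyes, and Cnga1, whose step lay between untreated and lasered eyes. The motif search covered 5 of the 9 members (Sag, Pde6b, Cnga1, Cngb1 and Nrl). A member left out of it may still have a RefSeq window. RefSeq's sequences for the GRCm38.p6 assembly were used, from 250 bases before to 50 bases after the transcription start. They were searched on both strands for TAATCC, the core letters bound by the homeodomain of CRX, and TGCTGA, the half-site bound by NRL and related factors; the 2 motifs do not overlap in these promoters. Motifs are in capitals, and each sequence runs 5′ to 3′ on the strand of its gene, so the capitals GGATTA in Sag are TAATCC on the other strand. The windows are at chr1:87803430-87803729 (plus strand) for Sag, chr5:108388123-108388422 (plus strand) for Pde6b and chr5:72642703-72643002 (minus strand) for Cnga1. Windows follow RefSeq starts, while the gene spans given above are those of GENCODE, and the 2 can differ. The windows of Cnga1 and Nrl lie wholly inside those spans and not at their 5′ ends.
Sag: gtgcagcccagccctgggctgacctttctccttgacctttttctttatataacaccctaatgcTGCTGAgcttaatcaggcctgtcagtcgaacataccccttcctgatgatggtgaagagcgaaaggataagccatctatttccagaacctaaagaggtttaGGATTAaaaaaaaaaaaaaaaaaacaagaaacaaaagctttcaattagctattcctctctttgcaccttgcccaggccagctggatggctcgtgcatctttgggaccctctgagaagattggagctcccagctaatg
Pde6b: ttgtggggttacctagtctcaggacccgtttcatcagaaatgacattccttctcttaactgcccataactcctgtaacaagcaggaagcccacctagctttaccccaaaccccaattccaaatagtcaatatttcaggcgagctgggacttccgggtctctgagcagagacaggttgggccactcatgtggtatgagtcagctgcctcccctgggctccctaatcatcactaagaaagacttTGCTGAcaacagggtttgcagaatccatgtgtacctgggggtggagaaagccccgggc
Cnga1: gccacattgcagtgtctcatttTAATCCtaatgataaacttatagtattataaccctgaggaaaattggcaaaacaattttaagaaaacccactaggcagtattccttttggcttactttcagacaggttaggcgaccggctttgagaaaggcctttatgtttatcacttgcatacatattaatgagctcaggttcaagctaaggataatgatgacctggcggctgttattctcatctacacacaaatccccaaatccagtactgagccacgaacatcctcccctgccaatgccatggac
The Sag window held both motifs, TGCTGA starting at -187 and TAATCC on the opposite strand at -87 from the start. The Pde6b window held TGCTGA at -8 and no TAATCC. Cnga1 held TAATCC at -228. Cngb1 held TAATCC at -58 and again at -25, and Nrl held neither motif. Of 32851 RefSeq promoter windows of this length, 7.06% held TAATCC, 19.5% held TGCTGA and 1.36% held both. A match of 6 letters is a description of these windows and does not show that a factor was bound.

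Transcripts of proteins that work with those of the members moved in the same direction for the most part. Of 16 further genes of the rod cascade, 14 were called lower and 1 higher in RVO versus untreated eyes (median log2 fold change -0.76), 12 lower and 2 higher in control versus untreated eyes (-0.45), and 1 lower in RVO versus control eyes (-0.38), where 13 were lower and 1 higher at an unadjusted p under 0.05 and DESeq2 called 10 lower, beside 22.9%, 24.1% and 12.7% of all genes. The beta and gamma subunits that complete rod transducin fell with Gnat1. Gnb1 was at 7455 ± 229, 4885 ± 554 and 3451 ± 333 CPM in untreated, control and RVO eyes (log2 fold change -1.12 for RVO versus untreated, adjusted p = 2.79e-05). Gngt1 was at 2489 ± 330, 1201 ± 154 and 795 ± 34.1 CPM (-1.66, adjusted p = 1.04e-05). Pdc, encoding phosducin, which binds the transducin beta and gamma subunits, had the largest fall of these genes, from 3844 ± 308 to 1075 ± 302 CPM in RVO eyes (-1.85, adjusted p = 7.56e-05).

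Of the genes that restore cGMP, Gucy2f, a guanylate cyclase, fell by 1.56 on the log2 scale in RVO versus untreated eyes (adjusted p = 1.50e-05) and its relative Gucy2e by 0.47 (adjusted p = 0.000438). Guca1a, a calcium-sensing activator of these cyclases, was the 1 partner called in RVO versus control eyes, at 499 ± 34.9 against 768 ± 75.9 CPM (-0.62, adjusted p = 0.00928). Guca1b, the second activator, was called higher in control than in untreated eyes (0.28, adjusted p = 0.00816) and had a value of -0.80 in RVO versus control eyes (adjusted p = 0.0127). The other exception was Aipl1, the chaperone needed to assemble the phosphodiesterase. It rose from 767 ± 26.2 CPM in untreated to 1125 ± 7.20 in control eyes (0.54, adjusted p = 4.26e-06) and 1388 ± 125 in RVO eyes (0.85, adjusted p = 7.88e-05), in the same samples in which Pde6a and Pde6b fell.

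Structural and retinoid genes of the photoreceptor outer segment and its surroundings were mixed. Of 15 such genes, 7 were called lower and 4 higher in RVO versus untreated eyes (median -0.30), 5 lower and 4 higher in control versus untreated eyes (-0.063), and 1 lower in RVO versus control eyes (-0.050), where 5 were lower and 5 higher at an unadjusted p under 0.05. Their summed level was between 24905 and 26461 CPM in RVO eyes, between 24088 and 26160 in control eyes and between 26453 and 27488 in untreated eyes. RVO eyes thus overlapped control eyes and, by RVO replicate 1 alone, untreated eyes. Rbp3, encoding the retinoid-binding protein of the matrix around photoreceptors, rose from 5606 ± 252 to 6720 ± 231 and 8419 ± 580 CPM, and Impg2, a proteoglycan of that matrix, from 610 ± 10.4 to 888 ± 137 and 1410 ± 145 CPM, each called against untreated eyes in both lasered groups. The disc rim genes Rom1 and Prph2 differed: Rom1 rose in RVO eyes (0.41, adjusted p = 0.000757), and Prph2 had a value of -0.30 (adjusted p = 0.0119), both against untreated eyes.

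Nrl works with other transcription factors of photoreceptors, and 5 of 10 of these were called lower and 1 higher in RVO versus untreated eyes (median -0.42), 7 lower and 1 higher in control versus untreated eyes (-0.53), and 0 in either direction in RVO versus control eyes (-0.088), where 3 were higher and 3 lower at an unadjusted p under 0.05 and DESeq2 called 3 higher and 0 lower. Crx, the homeodomain factor of rods and cones, fell from 1610 ± 94.0 to 1090 ± 84.5 CPM in control eyes (-0.58, adjusted p = 1.13e-05) and 953 ± 21.5 CPM in RVO eyes (-0.77, adjusted p = 5.53e-05). Nr2e3, which represses cone genes in rods, fell from 1135 ± 82.4 to 734 ± 117 CPM (-0.65, adjusted p = 6.84e-05) and 573 ± 69.1 CPM (-0.99, adjusted p = 0.000105). Both were thus called lower in control eyes, where Nrl was not, a difference that was not itself tested. Mef2d, a factor that acts with CRX in photoreceptors, rose in both lasered groups, by 0.50 and 1.08 on the log2 scale (adjusted p = 9.70e-06 and 0.000110).

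**Figure D4:**
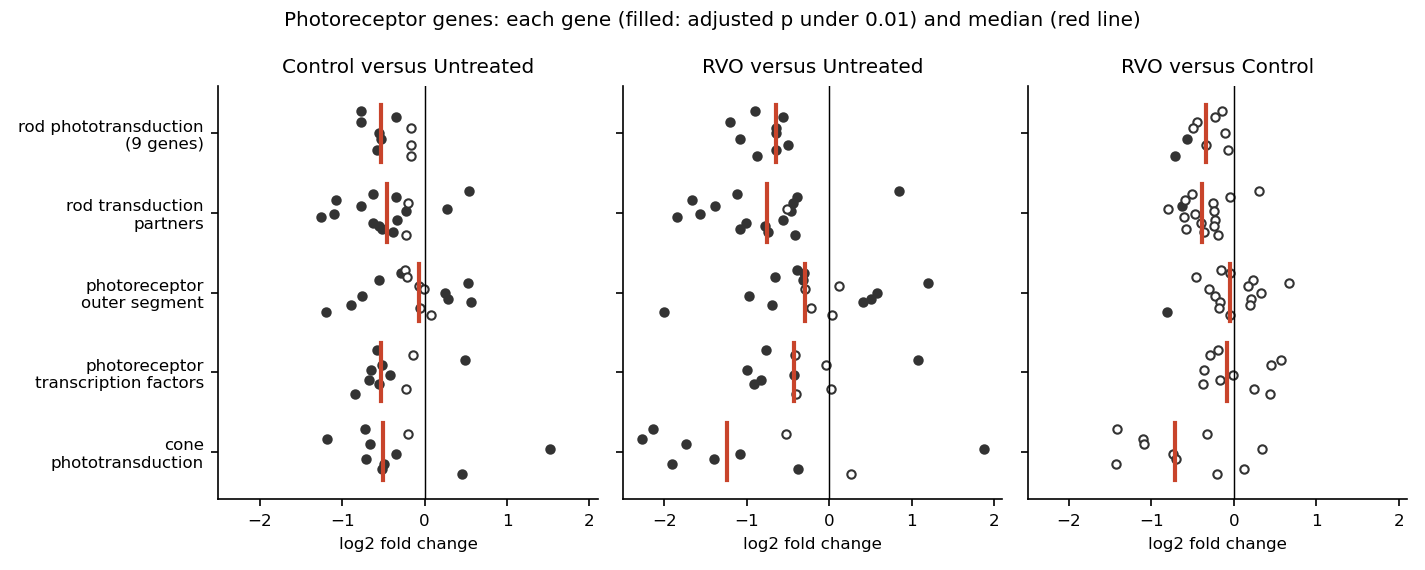
Log2 fold change (horizontal axes) of each gene in 5 groups of photoreceptor genes (rows) in the 3 comparisons, with filled points for an adjusted p under 0.01 and a red line at the median of each group. The 9 rod phototransduction genes all lie left of 0 in each panel, their 16 partners nearly all do, and the outer segment genes lie on both sides, with medians of -0.65, -0.76 and -0.30 in RVO versus untreated eyes.

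Cones use a parallel set of proteins, which allows 7 of the members to be set beside a cone counterpart (Pde6a and Pde6b both beside Pde6c, the catalytic subunit of cones). Of 10 cone phototransduction genes, 7 were called lower and 1 higher in RVO versus untreated eyes (median -1.24), 7 lower and 2 higher in control versus untreated eyes (-0.51), and 0 in RVO versus control eyes (-0.72), where 7 were lower and 1 higher at an unadjusted p under 0.05 and DESeq2 called 6 lower. The gene called higher in RVO versus untreated eyes was Gnb3, the most abundant of the list. It was at 332 ± 6.38, 968 ± 119 and 1227 ± 154 CPM in untreated, control and RVO eyes (1.88 for RVO versus untreated, adjusted p = 6.11e-06). The summed level of the list, with Gnb3 in it, was 1987 ± 51.7, 2165 ± 56.4 and 1899 ± 82.7 CPM in the same order. The cone transducin gene Gnat2 was at 245 ± 6.05, 158 ± 18.3 and 74.1 ± 19.9 CPM in untreated, control and RVO eyes. The log2 ratio of Gnat1 to Gnat2 overlapped between untreated (6.70 ± 0.0699) and control eyes (6.59 ± 0.0447, exact p = 0.2) and was higher in all RVO samples (7.26 ± 0.316). Between RVO and control eyes the log2 fold change was -1.09 for Gnat2 (adjusted p = 0.0103) beside -0.45 for Gnat1. For Cngb1 and Cngb3, the log2 ratio was 5.27 ± 0.0998 in untreated, 6.11 ± 0.0773 in control and 7.02 ± 0.434 in RVO eyes, with no overlap.

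The ratios to Pde6c went the other way. The log2 ratio of Pde6b to Pde6c was 4.49 ± 0.144 in untreated and 4.48 ± 0.194 in control eyes and was lower in all RVO samples, at 3.78 ± 0.0784, and that of Pde6a to Pde6c was lower in them too (4.33 ± 0.0623, against 4.57 ± 0.114 in control eyes). Pde6c was at 155 ± 14.1, 109 ± 3.36 and 120 ± 7.92 CPM. That of Pde6g to Pde6h was 4.56 ± 0.120 in untreated and 3.92 ± 0.101 in control eyes, and Pde6h itself was called higher in control eyes (0.46, adjusted p = 0.000269). Cnga1 and Sag complete the set: the ratio of Cnga1 to Cnga3 was 6.26 ± 0.0229, 5.70 ± 0.0900 and 5.91 ± 0.287, and that of Sag to Arr3 was 4.99 ± 0.0530, 5.60 ± 0.428 and 6.32 ± 0.499, the last 2 groups overlapping in both. Of 21 differences between groups over the 7 pairs, 15 had the smallest possible exact p of 0.1, and the adjusted p over the 21 was 0.140. These pairs were also chosen after values had been seen.

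**Figure D5:**
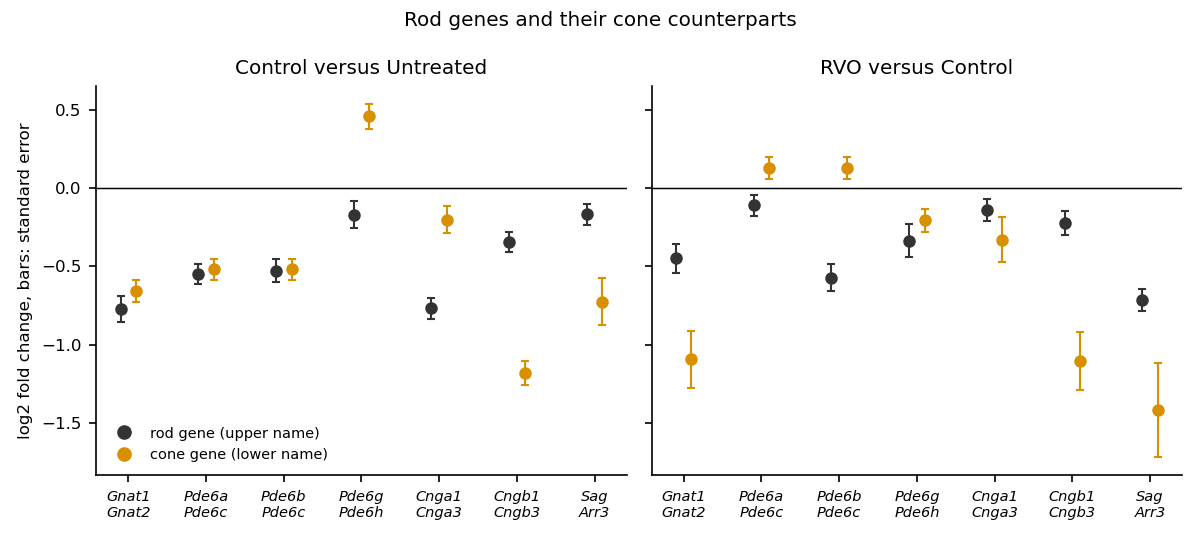
Log2 fold change (vertical axes, edgeR, bars for the standard error) of rod genes (dark, upper name) and their cone counterparts (orange, lower name) for control versus untreated and RVO versus control eyes. In the RVO versus control panel Gnat2 (-1.09), Cngb3 (-1.11) and Arr3 (-1.42) lie below their rod counterparts, while Pde6c (0.13) lies above Pde6a and Pde6b.

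Markers of other retinal and blood-borne cells moved in the same samples. In RVO versus untreated eyes, 6 of 10 bipolar, 8 of 9 amacrine and 9 of 9 ganglion cell genes were called lower, with medians of -1.51, -1.26 and -1.51. In RVO versus control eyes 1, 0 and 1 of them were called lower (9, 9 and 9 at an unadjusted p under 0.05, where 22.9% of all genes were lower, and 7, 9 and 8 by DESeq2, where 12.7% were). The summed level of the bipolar genes was 1158 to 1242 CPM in untreated, 927 to 1045 in control and 357 to 674 in RVO eyes, with RVO replicate 2 highest among the RVO samples. Monocyte and macrophage genes summed to 48.2 to 68.2, 84.3 to 105 and 152 to 172 CPM. Of these, 7 of 10 were called higher and 1 (Csf1r) lower in each lasered group against untreated eyes. Each of them had counts in at least 1 sample of every group. Neutrophil genes summed to 0.459 to 1.16, 7.94 to 24.1 and 45.7 to 102 CPM, and Ly6g, Mpo and Cxcr2 were at 0 in all untreated samples. Of 9 Mueller cell genes, 4 were called lower and 1 higher in RVO versus untreated eyes, and Vim alone was called in RVO versus control eyes (0.90, adjusted p = 0.00870). In RVO versus control eyes 6 of them were lower and 1 higher at an unadjusted p under 0.05, and DESeq2 called 6 lower and 1 higher. Glul, the most abundant of them, had the largest fall there, at 659 ± 87.9 against 1264 ± 339 CPM (-0.94, adjusted p = 0.0146). Pigment epithelium genes summed to 562 to 609, 525 to 579 and 493 to 968 CPM, with 1 of 10 called higher in RVO versus untreated eyes. The part of these cells in the fall of the rod genes was not tested. Without RVO replicate 2, which held the most lens RNA, 9 of 9 members were called lower against untreated eyes and 4 of 9 against control eyes. The genes called in either direction then went from 8529 to 10491 and from 563 to 6257, so calls rose over all genes and not only among members. Without Control replicate 1, which held the most lens RNA among control samples, 6 of 9 members were called lower in control versus untreated eyes (7758 genes called in either direction, against 8416).

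The 5 other genes whose levels followed the members most closely over the 9 samples were Rabgef1, Hcls1, Herc3, Ndrg3 and Cdr2, with Pearson's r of 0.997, 0.996, 0.994, 0.994 and 0.993 against the mean log2 CPM of the members, among 10523 genes with a mean of at least 10 CPM. The samples fall into 3 groups that differ strongly, so such values mostly restate the order of the group means. Rabgef1, which activates the endosomal GTPase Rab5, was at 481 CPM in untreated, 226 in control and 112 in RVO eyes, a steeper course than that of any member. Among the members, r with the mean of the other 8 was highest for Gnat1 and Pde6b (0.990 each) and lowest for Sag (0.868) and Nrl (0.885).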

How the data were processed

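Replicates were separate pools of 6 retinas. The authors sequenced stranded poly-A libraries as single reads on a HiSeq 1000, mapped them with STAR 2.5.2b, using Gencode vM11 for the mouse genome, counted reads per gene with featureCounts (Subread 1.5.1) and deposited the raw counts in 1 table. How reads matching several genes were handled and whether the strand was used is not given in the sources used here. Pde6a and Rcvrn each overlap 1 gene on the other strand, outside exons. The table held 48679 names, of which 92 were spike-in controls with 0 counts.

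The members and the gene lists were chosen with earlier results of these data known. Symbols were matched to GENCODE vM21 on GRCm38 for coordinates and lengths (46372 names). In R 4.3.3, edgeR 4.0.16 was run on each pair of groups with filterByExpr, TMM factors and the quasi-likelihood test, and called at 0.01 after Benjamini-Hochberg adjustment. The printed CPM values use TMM factors over all 9 samples, while each fold change comes from its own fit of 6 samples. Shares and ratios were compared by exact two-sided permutation tests. Likeness was Pearson's r on log2(CPM + 0.5). Named genes were the members, the genes of the partner, outer segment, transcription factor and cone lists, the 5 genes most like the members and, of each other list, the most abundant gene and those with the largest rise and fall in RVO versus control eyes. Markers at 0 in a group were named after their values were seen. Prcd, of the outer segment list, had no entry under that symbol. The result of 1 gene of that list is not reported here. Scripts were tested on simulated data. Alternatives included DESeq2 1.42.0, which is also the tool of the study. The number of sample columns not used was 0.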

Additional observations from a re-analysis of the deposited data

How the results depend on the processing

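Between RVO and control eyes, 2 members were called lower. The count was 4 without a filter on low counts (3309 genes called, against 563), with DESeq2 (4038) and in 1 fit of all 9 samples (3853), and 5 at an adjusted p under 0.05 (5836). With a replicate block it was 0, and it was 0 with that block and removal of GC content and length trends combined. In both of these fits with a block, edgeR called 0 genes, with 7227 and 7237 at an unadjusted p under 0.05, among them 6 and 5 members. Leaving out 1 sample gave 0 to 4: 4 without RVO replicate 2 (6257 genes called), and 0 without RVO replicate 1 or 3 or Control replicate 1, 2 or 3 (0 to 29 genes called, with 5 to 7 members at an unadjusted p under 0.05). Fewer samples lower the power of these fits, and the cause of the other changes was not tested. Over 14 alternatives, the log2 fold change stayed between -0.75 and -0.65 for Sag and between -0.65 and -0.51 for Pde6b, and each was called in 7. Against untreated eyes, 9 members were lower in RVO eyes under every alternative, and 5 to 8 in control eyes (6 as reported, 8 without Control replicate 3).

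Without TMM factors, the median over all genes moved by 0.21 for RVO and 0.17 for control versus untreated eyes, and the share of calls that were higher went from 52.7% to 68.5% and from 51.9% to 70.4%. Relative to untreated eyes, the control values of Pde6g, Sag and Nrl then turned from negative to 0.0036, 0.0055 and 0.011, a move of about the size of the median's. All other values of the members kept their sign under each alternative. With GC content and length trends removed, RVO versus untreated values were -1.68 for Gnat1, -0.97 for Pde6g, -1.19 for Rcvrn and -0.48 for Cnga1. RVO and control retinas were fellow eyes, but the labels do not say that same-numbered pools held the same mice, and the correlations gave no sign of it: r of same-numbered RVO and control samples was -0.17, -0.17 and 0.095, and 0 of 3 RVO samples correlated best with their own number.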
